A study of Mus musculus with 2 samples.

Results

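Integrins are the receptors by which macrophages hold to matrix and to other cells, and the genes described here are the 25 mouse integrin subunit genes together with 13 genes of the adaptors that join integrins to actin. The integrins were taken by spelling, as symbols in which Itga or Itgb is followed by a number or by d, e, l, m, v or x, and the adaptors were Tln1, Tln2, Vcl, Fermt2, Fermt3, Pxn, Ilk, Ptk2, Ptk2b, Zyx, Parva, Parvg and Lims1. All 38 were among the 22910 genes that could be named on the arrays, and 33 of them gave signal well above background on at least 1 array. The spelling leaves out Itga2b and Itgb2l, which are given beside the others as non-members.

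RNA was measured on 2 Agilent mouse arrays, 1 from primary macrophages and 1 from self-renewing macrophages, each grown from total bone marrow of C57BL/6 mice in medium with 100 ng/ml recombinant human M-CSF. The primary macrophages were collected at day 5, and the self-renewing macrophages after passage 4, the passage at which most cells stopped dividing and growing colonies appeared. According to the methods, the dishes were not coated, primary macrophages were the adherent cells, each passage by trypsin also took the floating cells along, and the cells were a bulk population and not clones where nothing else is stated. The age and number of the mice are not given in the sources used here, and cell type, passage and time in culture cannot be told apart. Both labels give male mice, yet of 8 Y-linked genes 5 were detected in self-renewing and 1 in primary macrophages, and Xist was detected in primary macrophages alone. The part of this in the differences below was not tested. All 8 of a list of macrophage markers, among them Csf1r, Adgre1 and Cd68, were well above background on both arrays.

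Each integrin is a pair of an alpha and a beta subunit, and the alpha subunit largely sets the ligand. Talin and kindlin bind the tail of the beta subunit and switch the receptor on, while vinculin, paxillin, zyxin and the complex of ILK, PINCH and parvin link it to actin, and the kinases FAK and PYK2 pass signals inward. In macrophages the leukocyte integrins built on the beta2 chain serve adhesion, phagocytosis and migration, and many of these cells form podosomes in place of large focal adhesions.

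Levels are given as log2 of background-corrected intensity relative to the 75th percentile of the gene probes of the same array, which stood at an intensity of 434 for primary and 446 for self-renewing macrophages. A level compares 1 probe between the arrays and does not rank genes. Differences are self-renewing minus primary. With 1 array per cell type there is no replicate error and no test was made, and 2-fold, or 1 on the log2 scale, was used as a size threshold. The root mean square SD of the log2 difference among probes of a gene shows how far probes agree, not the spread between arrays. It was 0.326 over the 5077 genes that have more than 1 probe detected on both arrays, and 0.192 over the 12 such members. Probes detected on 1 array alone do not enter it. Detected here means flagged by the scanner software as well above background. A gene detected on 1 array alone is given as a bound, taken against the dimmest signal well above background on the other array or the probe's own signal there, whichever was higher, and written as at least N-fold.

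Among the 33 detected members, 3 were higher by 2-fold or more in self-renewing macrophages and 6 were lower by 2-fold or more. That is 9.09% and 18.2% of them, beside 4.76% higher and 8.38% lower over all 15515 named genes detected. Among the 30 members detected on both arrays, 3 were higher and 4 lower, beside 4.2% and 5.58% of 14003 genes. With the authors' scaling, 1035 of all genes were higher and 1069 lower, in place of 739 and 1300, and the same 9 members passed, with Parva beside them. The higher members were Itga9, Itgal and Itgb5, and the lower ones were Itgb3, Itgb7, Itgax, Itgad, Parvg and Vcl. Of the other 24, 23 were detected on both arrays and differed by less than 2-fold, and Itgae, detected on 1 array, has a bound that does not settle it. The median over the 33, with bounds at their value, was 0.07 log2, where that of all genes was -0.02 log2. Itga2, Itga11, Itgb6, Itgb8 and Fermt2 were not well above background on either array.

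**Figure D1:**
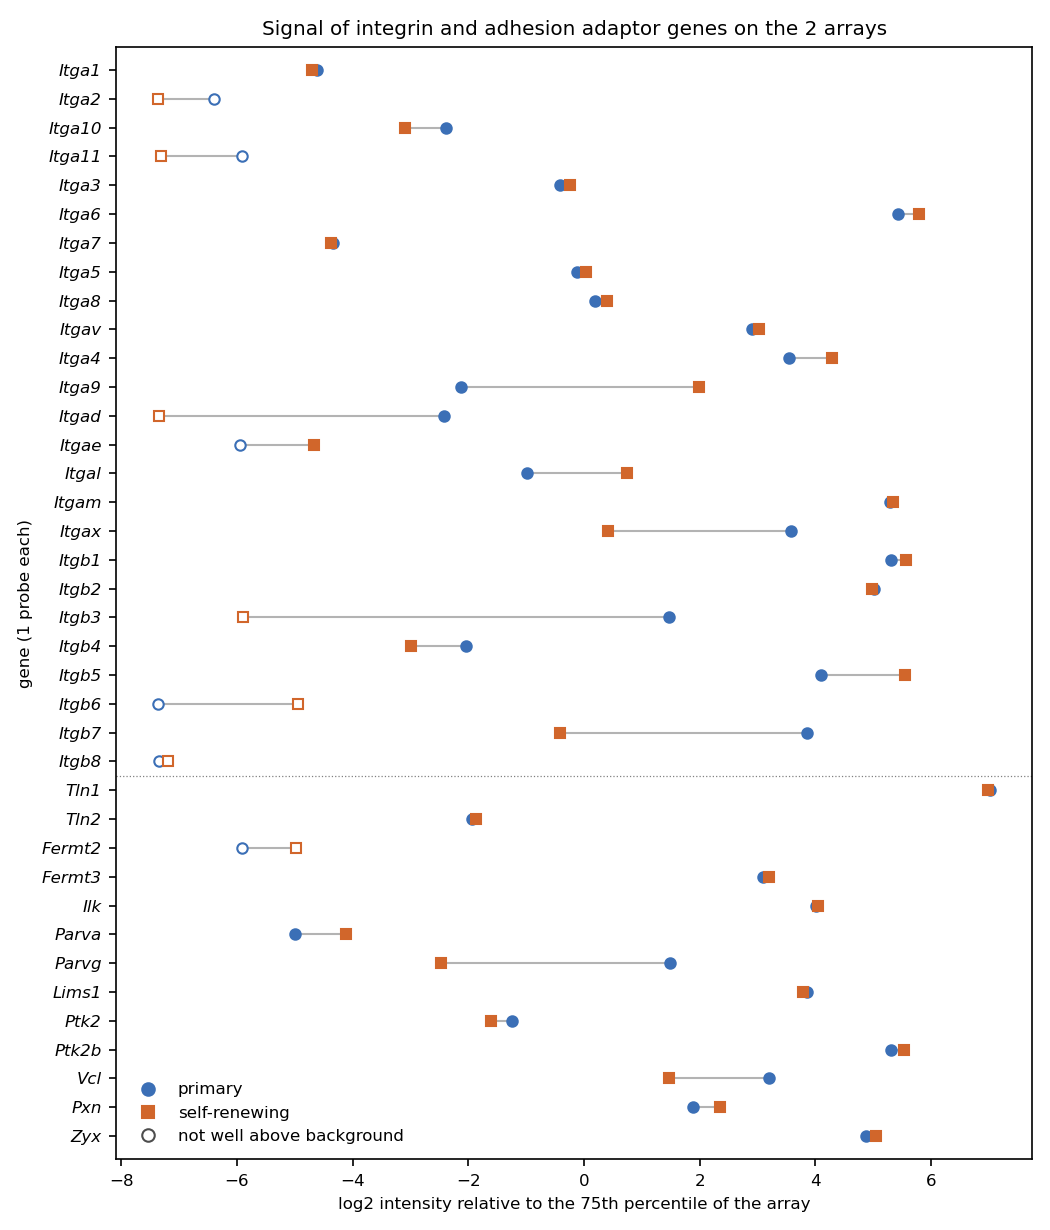
Signal of each member on the primary array (blue circles) and the self-renewing array (orange squares), as log2 intensity relative to the 75th percentile of the array, for 1 probe per gene, with integrins above the dotted line and adaptors below it. Open symbols are not well above background, and long grey lines mark the genes that differ most, such as Itga9, from -2.13 to 1.98, and Itgb7, from 3.85 to -0.42.

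The alpha subunits that pair with beta1 and bind collagen, laminin or the RGD motif of matrix proteins differed by less than 2-fold in each of the 8 that were detected, by the probe that stands for the gene. Of the collagen-binding subunits, Itga1 and Itga10 were detected, with differences of -0.09 and -0.71 log2. Both probes of Itga10 were lower, by 0.71 and 1.05 on the log2 scale. For Itga1 the other probe was detected in primary macrophages alone, with a bound of -1.17 log2, so that its probes do not give 1 size. The laminin-binding Itga6 was at 0.36 log2 and its 3 probes lay between 0.15 and 0.36 log2, while Itga3 and Itga7 were at 0.16 and -0.03 log2. The RGD-binding Itga5, Itga8 and Itgav lay at 0.17, 0.21 and 0.12 log2, 1 probe each. Their common partner Itgb1 was at 5.31 in primary and 5.56 in self-renewing macrophages, a difference of 0.25 log2 by 1 probe and 0.06 log2 by the other.

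Itga9, whose product pairs with beta1 and binds tenascin-C, VCAM-1 and osteopontin, was the member higher by the most in self-renewing macrophages. Its brighter probe read an intensity of 98.9 in primary and 1764 in self-renewing macrophages, and its dimmer probe 29.4 and 329.6. These are differences of 4.12 and 3.45 log2, that is 17.3-fold and 10.9-fold higher in the self-renewing macrophages. The related subunit gene Itga4, which pairs with beta1 or beta7, differed by 0.74 log2, and its second probe by 0.52 log2. Vcam1, which encodes a ligand of both, was detected in primary macrophages alone. It was at least 63.1-fold lower in self-renewing macrophages by its brighter probe, and at -3.67 log2 by the mean over its 2 detected probes. Spp1, which encodes osteopontin, differed by -0.09 log2. Tnc was not well above background on either array. The 250 bases before the RefSeq start of Itga9, at chr9:118711442-118711691 on the plus strand of GRCm38.p6, are shown as those of the member higher by the most, in lower case throughout because none of the motifs named further on has a match.

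Itga9: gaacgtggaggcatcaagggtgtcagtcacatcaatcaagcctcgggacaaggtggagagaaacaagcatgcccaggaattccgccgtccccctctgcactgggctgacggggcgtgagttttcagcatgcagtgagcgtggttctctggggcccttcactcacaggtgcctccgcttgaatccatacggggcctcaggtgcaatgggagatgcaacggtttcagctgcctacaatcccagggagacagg

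The 5 leukocyte alpha subunits went in different directions. Itgam, which encodes CD11b of the Mac-1 receptor for complement iC3b, was at 5.28 in primary and 5.35 in self-renewing macrophages, and its 2 probes differed by 0.06 and 0.26 log2. Itgal, which encodes CD11a of LFA-1, the receptor for ICAMs, read an intensity of 219 in primary and 749 in self-renewing macrophages, 3.33-fold higher in the latter by 1 probe. Itgax, which encodes CD11c, went the other way, from an intensity of 5179.5 in primary to 597 in self-renewing macrophages, 8.93-fold lower. A dimmer Itgax probe, detected in primary macrophages alone, was at least 3.22-fold lower. Itgad, which encodes CD11d, was detected in primary macrophages alone by both its probes, which gave bounds of at least 6.31-fold and at least 2.07-fold lower in the self-renewing macrophages. The self-renewing signal of both Itgad probes, at an intensity of 2.74 and 2.75, lay under the dimmest signal well above background on that array, 13.2.

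Itgae, which encodes CD103, the partner of beta7 on intraepithelial lymphocytes and some dendritic cells, was the only member detected in self-renewing macrophages alone, at least 1.44-fold higher there. Its signal was 17.5 on that array, close to the detection limit. The beta2 gene Itgb2, the partner of 4 of these 5 subunits, was at 5.02 in primary and 4.97 in self-renewing macrophages, a difference of -0.05 log2.

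Itgam, Itgax and Itgad lie next to each other on mouse chromosome 7 in the GRCm38.p6 assembly, with 1 non-coding gene between each pair. Along this stretch the difference was 0.06 log2 for Itgam, -3.16 log2 for Itgax and a bound of -2.66 log2 for Itgad. Itgal is on the same chromosome, 35 protein-coding genes away from Itgam. Of the 5 nearest genes measured on both arrays on either side of Itgax, 10 in all, 0 were at least 2-fold lower and 1 was at least 2-fold higher, with a median of 0.23 log2. Itgad, detected on 1 array and lower, is not among these 10. For the neighbouring pair of which 1 differed and 1 did not, the 250 bases before the transcription start are shown from RefSeq on GRCm38.p6, Itgam at chr7:128062390-128062639 and Itgax at chr7:128129300-128129549, both on the plus strand, in lower case with matches to the PU.1 core GAGGAA on either strand in capitals.

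Itgam: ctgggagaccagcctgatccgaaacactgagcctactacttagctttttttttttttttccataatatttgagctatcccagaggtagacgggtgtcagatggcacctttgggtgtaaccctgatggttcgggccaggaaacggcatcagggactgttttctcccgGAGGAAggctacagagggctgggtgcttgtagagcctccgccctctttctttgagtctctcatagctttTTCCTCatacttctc

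Itgax: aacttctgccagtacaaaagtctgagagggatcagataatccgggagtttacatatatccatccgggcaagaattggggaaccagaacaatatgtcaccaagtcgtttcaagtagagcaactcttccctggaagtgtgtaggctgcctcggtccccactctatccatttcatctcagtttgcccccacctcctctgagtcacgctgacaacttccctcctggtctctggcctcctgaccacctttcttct

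PU.1, encoded by Spi1, is the factor that directs macrophage development, and Spi1 itself differed by 0.23 log2. The Itgam window held 2 matches, 1 per strand, and the Itgax window held 0, where 23.3% of all 32851 windows of this length in the table held at least 1. No windows of Itgad, Itgal, Itgb2 or Itgb3 were used here.

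Of the 8 beta subunits, 6 were detected. Their median absolute difference was 1.19 log2, beside 0.36 log2 for the 15 detected alpha subunits and 0.30 log2 for all genes. Genes this few, with Itgb3 at a bound, do not tell beta and alpha subunits apart. Itgb3, which encodes CD61, the beta chain of the vitronectin receptor of osteoclasts and of the platelet fibrinogen receptor, read an intensity of 1205 in primary and 7.51 in self-renewing macrophages by its brighter probe, at least 94.2-fold lower. Its dimmer probe, well above background on both arrays, read 39.4 and 14.8 and was 2.73-fold lower. The direction was the same, and the size is not fixed by these probes. Itgb7, the partner of alpha4 and alphaE, read 6249 in primary and 334 in self-renewing macrophages, 19.2-fold lower by its 1 probe. Itgb5, which pairs with alphaV only, went from 7453 to 20743, 2.71-fold higher. Itgb4, the hemidesmosome subunit, lay just under the threshold at 1.92-fold lower, from -2.04 to -2.99.

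**Figure D2:**
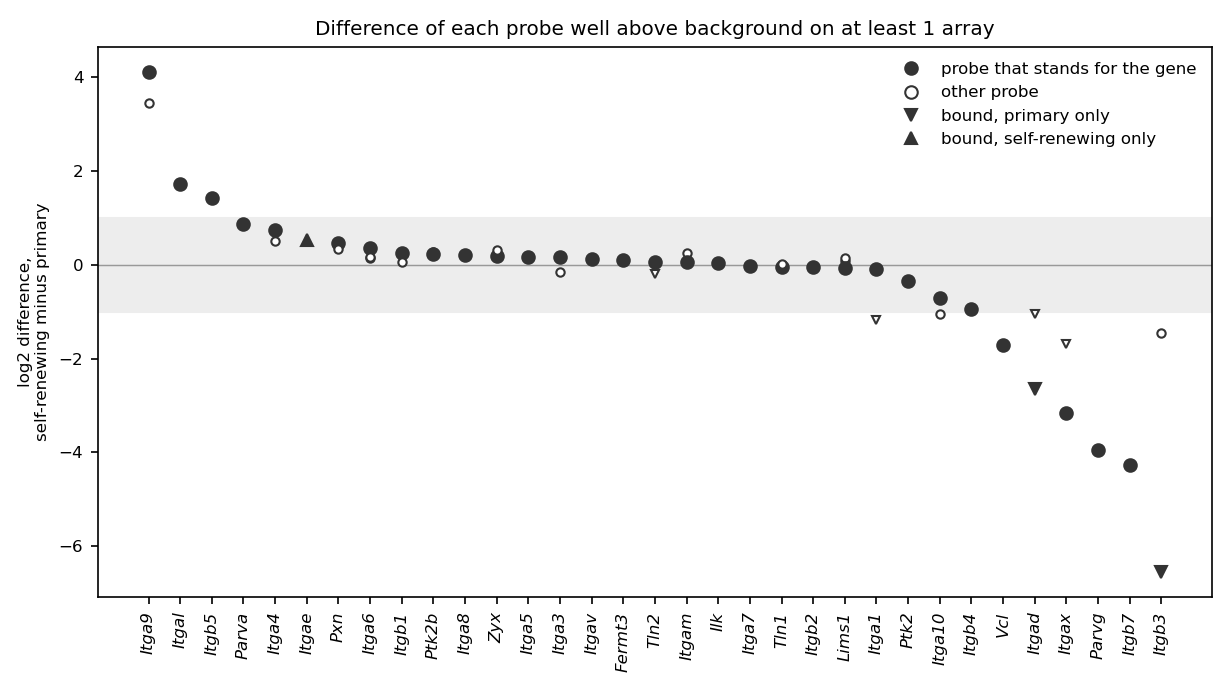
Log2 difference, self-renewing minus primary, of every probe well above background on at least 1 array for the 33 detected members, ordered by the probe that stands for the gene (large filled symbols). Triangles are bounds and the grey band spans 2-fold either way. The band holds 23 members detected on both arrays and the bound of Itgae, and the widest differences outside it are Itga9 at 4.12, Itgb7 at -4.27 and Itgb3 at a bound of -6.56.

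Some marker lists of other cells were lower in self-renewing macrophages beside the lower integrins, and others were not. Of 10 markers of megakaryocytes and platelets, a list that itself holds Itga2b, 9 were well above background in primary and 5 in self-renewing macrophages, and 4 were at least 2-fold lower in the latter, among them Pf4 at -2.24 log2 and Ppbp at a bound of -6.11 log2. Their summed signal was 262 times the 75th percentile in primary and 57.8 times in self-renewing macrophages. Ppbp, Gp9, Gp1ba, Gp5 and Itga2b were not well above background in the latter. Of the 8 osteoclast markers, 7 were detected on both arrays and 3 were at least 2-fold lower in self-renewing macrophages, Dcstamp at -6.38 log2, Acp5 at -4.60 log2 and Atp6v0d2 at -2.16 log2, while Ctsk was at 0.85 log2. The summed signal of this list was 20.1 and 11.4. For the dendritic cell list, 6 of 8 markers were well above background in primary and 3 in self-renewing macrophages, with Ccr7 at a bound of -4.15 log2 and Batf3 at -1.79 log2, while Zbtb46 was at 0.62 log2 and Siglech at 0.09 log2. The sums were 195 and 207 times the 75th percentile, nearly all of it from Siglech. Of 10 neutrophil markers, 8 were detected in primary and 5 in self-renewing macrophages, and 7 were at least 2-fold lower in the self-renewing macrophages, with sums of 105 and 6.60. S100a8, S100a9, Ltf and Ngp were among those not detected in the latter. Elane differed by -0.47 log2, from 3.05 to 2.58, and made up most of the self-renewing sum. Cxcr2 was detected in self-renewing macrophages alone, with a bound of 0.47 log2. Over the 12 lists of cells other than macrophages, 0 genes were at least 2-fold higher in self-renewing macrophages, and 0 were at least 2-fold lower in the erythroid, NK cell, stromal, endothelial and epithelial lists, of which 2 to 4 genes each were detected. The mast cell, B cell and T cell lists had 2, 2 and 1 genes at least 2-fold lower, of 5 detected in each. Over all named genes detected, 4.76% were higher and 8.38% lower, and 5 detected genes are too few to set a share beside these. The part of these cells in the lower signal of Itgb3, Itgb7, Itgax and Itgad was not tested, and fewer cells of a type and less RNA per cell cannot be told apart in bulk RNA.

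Read as pairs, 19 of the 24 known integrin heterodimers had RNA of both subunits well above background in primary macrophages and 18 in self-renewing macrophages, of which 17 were shared. Only alphaIIb-beta3 and alphaD-beta2 counted on the primary array and not on the other, and only alphaE-beta7 on the self-renewing array and not on the other. In each of these pairs the alpha subunit was the one detected on 1 array alone. The pair alphaIIb-beta3 rests on Itga2b, at least 1.89-fold lower in self-renewing macrophages by 1 dim probe. The pair alphaV-beta3 counted in self-renewing macrophages through the dimmer Itgb3 probe, without which the count was 17. At least 1 subunit differed by 2-fold or more in 9 pairs. In 7 of them the other subunit was detected on both arrays and under 2-fold, and in the other 2, Itga2b with Itgb3 and Itgae with Itgb7, the alpha subunit has only a bound, which does not settle whether it passed 2-fold. Subunits are shared between pairs, so these 9 pairs come from the 3 higher and 4 lower integrins. Over all named genes detected, 13476 of 15515 were under 2-fold, so a partner under 2-fold is the common case. For alphaV, whose RNA differed by 0.12 log2, the beta3 partner was lower and the beta5 partner higher. For alpha4, at 0.74 log2, the beta7 partner was lower and beta1 was at 0.25 log2. For beta2, at -0.05 log2, Itgal was higher, Itgam level and Itgax and Itgad lower. RNA of 2 subunits does not show that the pair stands on the cell surface.

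**Figure D3:**
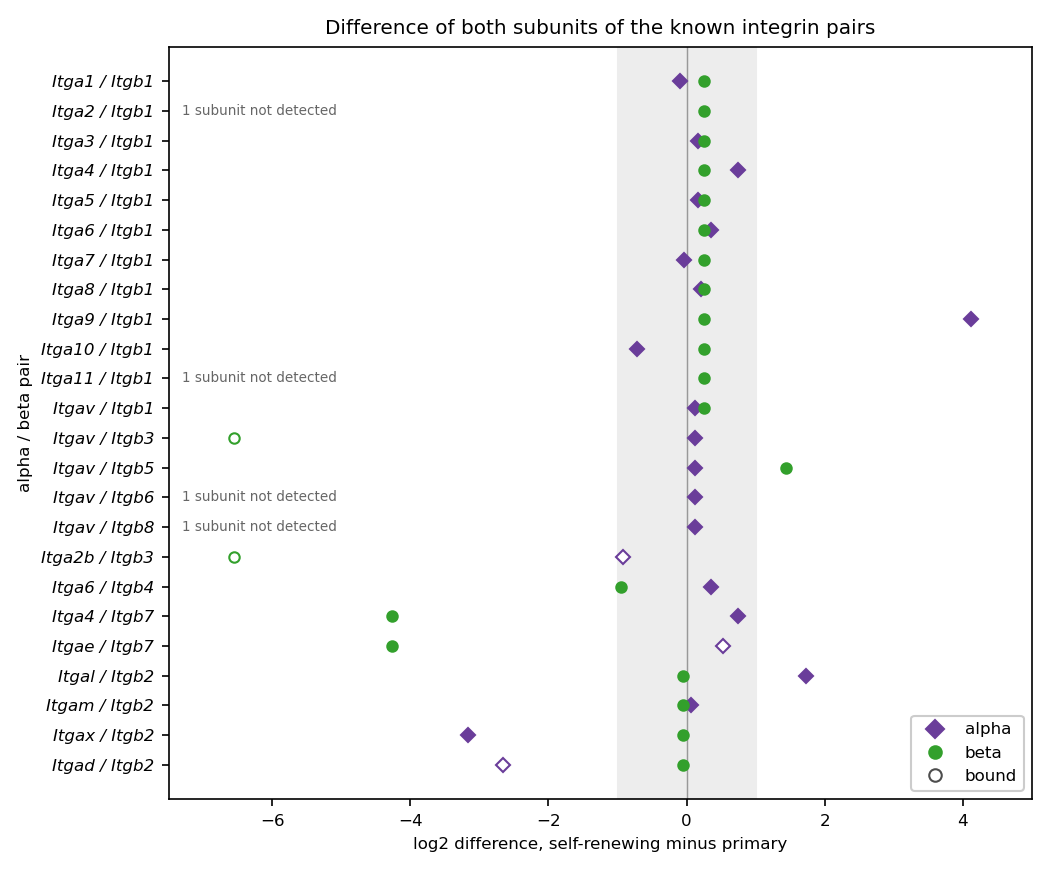
Log2 difference, self-renewing minus primary, of the alpha subunit (diamonds) and the beta subunit (circles) of the 24 known integrin pairs, with open symbols for bounds and a grey band for 2-fold either way. Of the 9 pairs with a symbol outside the band, 7 have the other subunit measured inside it and 2, Itga2b with Itgb3 and Itgae with Itgb7, have a bound there, which may lie further out. The first kind is seen for Itgav at 0.12 beside Itgb3 and Itgb5. Subunits recur between pairs, so the pairs are not independent.

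The activators of integrins that were detected were level, by the probe that stands for each gene. Tln1, the talin of blood cells and most tissues, was at 7.02 in primary and 6.98 in self-renewing macrophages, with its 2 probes at -0.05 and 0.02 log2. Fermt3, the kindlin of blood cells, was at 3.09 and 3.20, and Tln2 at -1.94 and -1.88. A dimmer Tln2 probe was detected in primary macrophages alone, with a bound of -0.19 log2, which does not settle its size. Fermt2, the kindlin of most other cells, was not well above background on either array.

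In the complex of ILK, PINCH and parvin, 1 of 4 members differed by 2-fold or more. Parvg, which encodes the parvin of blood cells, read an intensity of 1220.2 in primary and 80.5 in self-renewing macrophages, 15.6-fold lower by its 1 probe. Ilk differed by 0.04 log2, and Lims1, which encodes PINCH1, by -0.06 log2 with its 3 probes between -0.06 and 0.14 log2. Parva, the widely expressed parvin, went from -4.99 to -4.12, 1.83-fold higher but close to the detection limit on both arrays. Among non-members of the same complex, Lims2, which encodes PINCH2, was 6.30-fold higher, and Parvb and Rsu1, named after their values were seen, were at -0.18 and -0.09 log2. Parvb is the gene next to Parvg. The first of 2 RefSeq starts of Parvg, at chr15:84324470-84324719 on the plus strand of GRCm38.p6, is shown as the window of a lower member that holds a PU.1 core, in capitals, and beside it that of Itgb7, at chr15:102231936-102232185 on the minus strand, which holds none.

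Parvg: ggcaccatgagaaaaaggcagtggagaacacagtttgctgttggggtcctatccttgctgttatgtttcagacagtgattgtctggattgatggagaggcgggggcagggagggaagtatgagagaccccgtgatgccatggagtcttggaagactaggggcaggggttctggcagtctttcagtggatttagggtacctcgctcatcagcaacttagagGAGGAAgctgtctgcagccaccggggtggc

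Itgb7: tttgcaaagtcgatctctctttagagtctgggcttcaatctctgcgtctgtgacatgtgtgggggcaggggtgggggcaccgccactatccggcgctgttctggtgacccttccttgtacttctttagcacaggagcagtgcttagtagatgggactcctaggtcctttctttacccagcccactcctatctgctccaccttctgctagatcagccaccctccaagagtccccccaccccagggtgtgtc

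Of the remaining adaptors, Vcl, which encodes vinculin, the protein that ties talin to actin under load, read 3956 in primary and 1237 in self-renewing macrophages, 3.29-fold lower by 1 probe. Its companions were within 2-fold. Pxn was at 0.46 log2 with a second probe at 0.33 log2, and Zyx at 0.18 log2 with a second probe at 0.32 log2. Ptk2, which encodes FAK, was at -0.35 log2, and Ptk2b, which encodes PYK2, the kinase of this family that prevails in macrophages, was at 5.31 and 5.54, a difference of 0.22 log2. Over the 12 detected adaptors, 0 were higher and 2 lower by 2-fold or more, with a median of 0.06 log2. Of the 21 detected integrins 3 were higher and 4 lower, with a median of 0.12 log2. Over all named genes detected, 4.76% were higher and 8.38% lower, and counts this small do not tell adaptors and integrins apart.

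A wider look at adhesion took 7 lists of other genes, with 191 of 222 genes detected. Of these, 13 were higher and 20 lower by 2-fold or more, 6.81% and 10.5%, which is near the 4.76% and 8.38% of all genes, and the median was -0.00 log2. The extracellular ligands of integrins held the most, with 5 of 24 detected genes higher and 8 lower, or 3 lower when only probes detected on both arrays were kept. The matrix genes Thbs1 and Fn1 encode thrombospondin-1 and fibronectin. By the probes that stand for them, both were, like Vcam1, detected in primary macrophages alone, with bounds of -4.29 and -3.70 log2. The other detected Fn1 probe went the other way, detected in self-renewing macrophages alone. The mean over the 2 Fn1 probes was -1.13 log2, so these probes do not settle the direction of Fn1. In the other direction, F11r, which encodes the junction protein JAM-A and a ligand of LFA-1, was 6.63-fold higher, Edil3, which encodes an RGD-bearing matrix protein, 4.30-fold and Col4a1, a chain of basement membrane collagen, 3.34-fold. Other ligands of LFA-1, named after their values were seen, differed in opposite directions, Icam1 at 1.14 log2, though 0.89 log2 with normexp background correction, and Icam2 at -2.59 log2.

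Genes of inside-out activation were mostly level, with 15 of 18 under 2-fold and a median of -0.19 log2. Rasgrp3 and Cyth1, a pair of exchange factors, were 2.76-fold and 2.43-fold higher, and Rap1gap, which switches Rap1 off, was at least 7.83-fold lower. Rap1a, Rap1b and Apbb1ip, which recruit talin, were at -0.29, 0.25 and -0.20 log2 and were named after their values were seen. In outside-in signalling, 40 of 44 genes were under 2-fold and the median was 0.01 log2. The Src family kinase Fgr was 13.2-fold lower, by 2 probes, and the scaffolds Asap2 and Cass4 were 5.32-fold and 2.14-fold lower, whereas Nedd9, of the same family as Cass4, was 2.29-fold higher. With normexp, Cass4 was at -0.88 log2 and Nedd9 at 0.83 log2, and with the authors' scaling Cass4 was at -0.91 log2.

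Of 29 other actin linkers, 2 were higher and 1 lower at 2-fold. Besides Lims2, the named gene was Nexn, which encodes an actin-binding protein, 2.38-fold lower, though at -0.38 log2 with normexp. Of 29 podosome genes 28 were under 2-fold, and Afap1, an actin-binding partner of Src, was at least 11.3-fold lower. Among 19 regulators of integrin traffic, Acap1 and Rab4a, which act in recycling of integrins from endosomes, were 17.9-fold and 3.79-fold lower, and 0 were at least 2-fold higher. Among 28 tetraspanins and other lateral partners, 3 were higher, Ptgfrn at 3.78-fold, Cd82 at 2.59-fold and Cd81 at 2.07-fold, and 4 were lower, with Tspan32 at 34.6-fold and Tspan33 and Cav1 at least 26.8-fold and 5.91-fold. With normexp 2 were lower in place of 4, and Cav1 was at -0.86 log2.

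**Figure D4:**
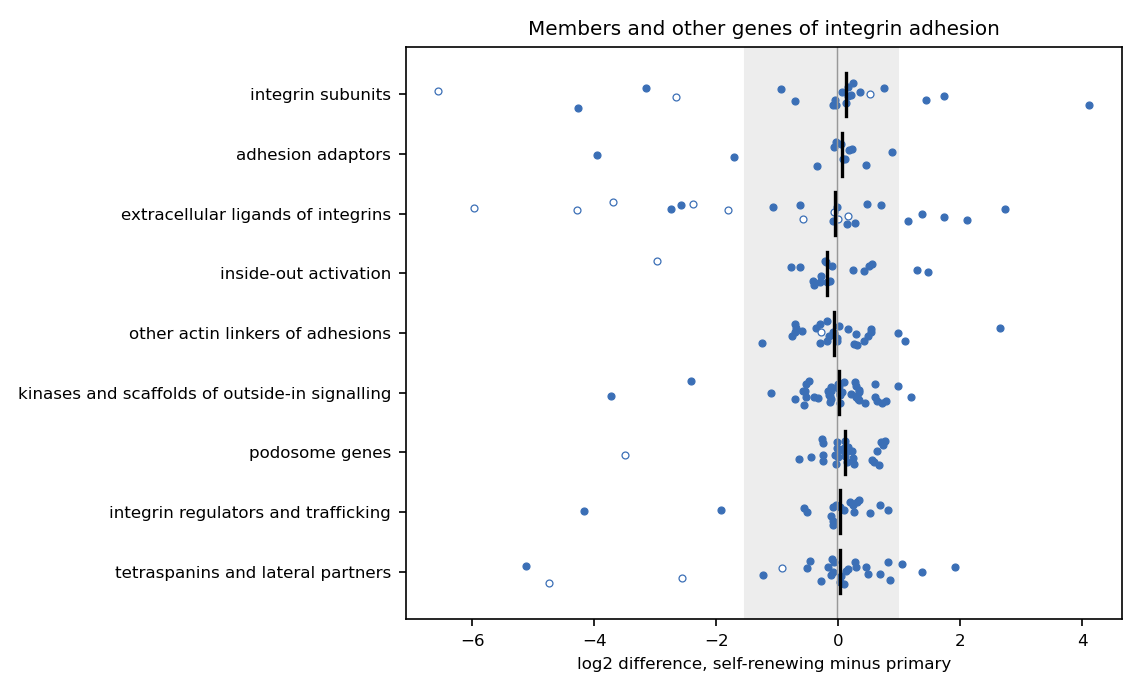
Log2 difference, self-renewing minus primary, of each detected gene (points, open for bounds) in the integrin and adaptor groups and in 7 lists of other adhesion genes, with the median of each as a black bar. The grey band spans the 5th to 95th percentile of all named genes, -1.53 to 0.97. The medians lie between -0.19 and 0.12. The extracellular ligands spread the most, in both directions, with a median absolute difference of 1.11 log2 against 0.30 log2 for all genes.

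Genes next to the members that differed were mostly under 2-fold. For the 9 members at least 2-fold different, the median of the 10 nearest genes measured on both arrays lay between -0.24 log2, at Parvg, and 0.23 log2, at Itgax. At Itgal, Itgb3 and Itgb5, 0 of the 10 neighbours were at least 2-fold different. At Parvg 2 were lower, at Vcl 1 was lower and at Itgax 1 was higher, while at Itgb7, itself lower, 2 were higher. Itga9 and Itgad each had 1 higher and 1 lower, that of Itgad being Itgax. Itgad itself, detected on 1 array, was not counted beside Itgax. Over all genes detected on both arrays the shares were 4.2% higher and 5.58% lower. The promoter table held windows for 25 of the 38 members, and 10 of the 25 held the PU.1 core GAGGAA in at least 1 window. Counted by window, it was 10 of 31 member windows, beside 23.3% of all windows. The core was present in 0 of 2 higher members, 1 of 4 lower members, 7 of 14 members under 2-fold and 2 of 5 members not detected. The element CCACACCC, bound by factors of the Krüppel family, occurred in the windows of Itga4 and Parvg and in 3.20% of all windows, the E-box CACGTG in those of Ilk and Lims1 and in 6.02% of all windows, and TGCTGAC, the core of the site bound by Maf factors, in 0 member windows and 3.81% of all windows, with both strands searched. Such a match is a description of the letters and not a site.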

How the data were processed

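Total RNA of each culture was labelled with Cy3 and hybridised to an Agilent SurePrint G3 mouse array. The authors deposited scanner output of Feature Extraction 11.5.1.1, in which each spot has an intensity, background-subtracted and detrended within the array, and other flags of 0 or 1 for signal well above background, saturation and outliers. They also deposited a table of intensity values equal to these times 1 constant per array, 1.07 and 1.19, whose origin is not given in the sources used here, though the methods name GeneSpring. No spot (0) was saturated.

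Here outlier spots, 63 per array, and control spots were left out, spots of a probe were averaged, and the log2 of the 75th percentile over probes was subtracted on each array. Through accessions in a GRCm38.p6 table, 58.3% of 56598 probes were named. The design is on mm9, so coordinates are those of the RefSeq promoter windows only. A gene was represented by the probe with the highest mean signal among its probes well above background on at least 1 array. Of 56598 probes, 34807 on the primary and 33095 on the self-renewing array were well above background, and the median SD between spots of the same probe was 0.043 and 0.047 log2. The small number of arrays limits the precision. The members, lists and motifs were chosen with earlier results of these data known, and the motifs after these values were seen. The genes named are all members, Itga2b and Itgb2l, and in each list up to 3 largest rises and falls of at least 2-fold. Probes detected on both arrays had to agree in direction, and probes detected on 1 array alone were not checked. Other genes are marked as named after their values were seen, or are markers. Alternatives were quantile normalization, scaling by the 75th percentile or median of probes detected on both arrays, the authors' scaled values, normexp with an offset of 50 on median spot signals, no filter on background, only probes detected on both arrays, and the mean over probes. Python 3.11.15, numpy 2.4.6, pandas 2.3.3, matplotlib 3.10.9, R 4.3.3 and limma 3.58.1 were used, and the functions were tested on simulated data. No simulated probe was detected on 1 array alone, so the bounds were not tested in this way.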

Additional observations from a re-analysis of the deposited data

How the results depend on the processing

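No paired analysis was possible because only 1 array stands for either cell type, and for the same reason no array could be left out. The 9 members at least 2-fold different stayed so, in the same direction, under each of the 8 alternatives that gave a value, and Itgad had no value when only probes detected on both arrays were kept. Of 262 values of members under the alternatives, 247 lay within the SD between probes of the value given and 15 beyond it. Itgb3 ranged from -7.37 to -1.45 log2, the latter with only probes detected on both arrays, and Itgad from -4.92 to -1.08 log2, the latter with normexp. With no filter on background, 5 integrins were at least 2-fold higher, since Itgae and the undetected Itgb6 then counted. With quantile normalization and with the authors' scaled values, 1 adaptor was at least 2-fold higher, Parva at 1.12 and 1.06 log2, and it was at 0.23 log2 with normexp. With only probes detected on both arrays, 11 genes of the other adhesion lists were at least 2-fold lower in place of 20, as genes detected on 1 array were then left out. The authors' values shift the median of all genes by 0.19 log2, and 49.2% of the genes at least 2-fold different were then higher, against 36.2% here. Over all named genes normexp gave 429 higher and 750 lower at 2-fold in place of 739 and 1300, no filter 1192 and 2336, and probes detected on both arrays 588 and 782. Signs of small differences were not fixed: Itga1, Itga3, Itga7, Itgb2, Lims1, Tln1 and Tln2 changed sign under 1 or 2 alternatives. Members of 1 probe, such as Itgb7, Parvg and Vcl, have no second probe to set beside them, and signals near the detection limit, such as those of Parva and Itgae, fix no size.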

Other observations

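Itgb2l, an integrin beta2-like gene outside the spelling rule, was detected in primary macrophages alone by 1 of its 2 probes, at least 3.02-fold lower in the self-renewing macrophages. Of the 8 macrophage markers, Mertk was 2.23 log2 higher and Fcgr1 1.76 log2 lower in signal, where the other 6 lay between -0.68 and 0.76 log2.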
